A study of Mus musculus with 2 samples.

Results

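The genes of the mitochondrial protein import machinery were taken from long-read RNA libraries of the mouse heart by name: annotated genes whose symbol begins with Timm, Tomm, Pam16, Grpel, Samm50 or Pmpc, pseudogenes left out and every class of transcript model included. Of 33 annotated genes with such names, 30 were read, out of 14514 annotated nuclear genes with at least 1 read. They were represented by 126 of 56790 transcript models in replicate 1 and by 144 of 69026 in replicate 2. The names gathered 2 genes that act elsewhere: Tomm34, a cytosolic co-chaperone, and Timmdc1, an assembly factor of respiratory complex I. Hearts came from male B6CASTF1/J mice aged 2 months, a cross between the laboratory strain C57BL/6J and the wild-derived strain CAST. The series held a single group of 2 libraries, each from 2 µg of RNA, so no treatment, genotype or tissue could be compared. Biosample labels numbered different males for the 2 libraries, whereas another label field gave both the same male and the donor label was shared; the spread between them may therefore be technical.

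Nearly all mitochondrial proteins are encoded in the nucleus, made in the cytosol and imported. The TOM complex of the outer membrane is the common entry gate; behind it the SAM complex inserts barrel proteins, the small TIM chaperones escort hydrophobic proteins across the intermembrane space, TIM22 inserts metabolite carriers into the inner membrane, and TIM23 with its ATP-driven motor passes precursors to the matrix, where the processing peptidase removes the targeting sequence. Cardiomyocytes are packed with mitochondria, and the adult heart draws most of its ATP from them.

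Replicate 1 held 430251 reads of annotated nuclear genes and replicate 2 held 629896, and levels are given in CPM, in which the reads of a gene are scaled to a common total of such reads. A long read is meant to cover a whole transcript, so CPM was not divided by length, and how well transcripts of different lengths were recovered was not measured. All 5 cardiomyocyte markers were read, summing to 39396 CPM in replicate 1 and 30888 in replicate 2. Most of each sum was Myh6, with 36490 and 27652 CPM. Tnni3 (632 and 638 CPM), Actc1 (2029 and 2304), Ttn (128 and 167) and Ryr2 (116 and 127) were each lower in replicate 1. Erythroid markers summed to 11259 and 2981 CPM. Fibroblast markers summed to 669 and 616 CPM, endothelial ones to 242 and 154, macrophage ones to 79.0 and 74.6 and brown fat ones to 67.4 and 92.1, and of 3 skeletal muscle markers only Actn3 was read, with 1 read in replicate 1. Fibroblast and macrophage markers did not all go the way of their sums. Col1a1 was higher in replicate 1 (153 and 81.0 CPM), but Dcn (495 and 513) and Pdgfra (20.9 and 22.2) were lower. The macrophage marker C1qa was lower there (41.8 and 50.8 CPM), whereas Cd68 and Csf1r were higher. Ucp1 had 0 and 6 reads, so the brown fat sum was mostly Cidea. In bulk tissue, fewer cells of a type and less RNA per cell cannot be told apart.

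The sequences of the small TIM genes show what defines the family. Each encodes a protein of at most 100 residues that holds a pair of CX3C motifs, a cysteine, any 3 residues and another cysteine, whose cysteines form disulfide bonds in the intermembrane space. The coding sequences of the leading transcripts are printed from the GENCODE M21 transcripts, with the cysteine codons of both motifs in capitals; they show how differently the same frame is filled in the most read member, Timm8b, and in the least read, Timm9.
Timm8b-201: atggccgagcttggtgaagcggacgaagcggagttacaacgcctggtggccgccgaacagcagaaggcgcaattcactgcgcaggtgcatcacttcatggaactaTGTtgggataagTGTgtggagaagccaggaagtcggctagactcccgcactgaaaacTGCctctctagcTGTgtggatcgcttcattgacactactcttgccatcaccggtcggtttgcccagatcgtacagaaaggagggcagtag
Timm13-201: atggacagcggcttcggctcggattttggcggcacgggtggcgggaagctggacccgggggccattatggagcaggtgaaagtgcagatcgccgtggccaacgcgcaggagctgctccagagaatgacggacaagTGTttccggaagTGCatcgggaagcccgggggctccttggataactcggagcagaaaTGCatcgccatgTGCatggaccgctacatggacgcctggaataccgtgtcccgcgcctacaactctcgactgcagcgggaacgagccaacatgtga
Timm8a1-201: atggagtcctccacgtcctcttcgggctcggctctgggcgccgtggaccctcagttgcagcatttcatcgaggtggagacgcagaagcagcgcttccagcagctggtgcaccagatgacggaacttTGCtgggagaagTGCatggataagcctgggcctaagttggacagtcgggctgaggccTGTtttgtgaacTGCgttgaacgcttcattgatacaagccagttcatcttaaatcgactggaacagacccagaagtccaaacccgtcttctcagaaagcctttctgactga
Timm10-201: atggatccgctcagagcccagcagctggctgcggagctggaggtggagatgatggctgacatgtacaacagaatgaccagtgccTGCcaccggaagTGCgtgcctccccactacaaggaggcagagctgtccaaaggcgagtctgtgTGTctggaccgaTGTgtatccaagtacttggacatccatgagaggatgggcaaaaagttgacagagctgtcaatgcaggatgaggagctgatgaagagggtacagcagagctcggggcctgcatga
Timm9-207: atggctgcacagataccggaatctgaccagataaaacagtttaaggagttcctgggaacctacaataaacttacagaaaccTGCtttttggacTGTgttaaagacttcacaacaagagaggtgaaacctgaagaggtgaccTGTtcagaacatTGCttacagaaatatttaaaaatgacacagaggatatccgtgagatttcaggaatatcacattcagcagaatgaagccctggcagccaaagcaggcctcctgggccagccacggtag
The motifs stand 14 codons apart in Timm8b, Timm13 and Timm8a1, 15 apart in Timm9 and 16 apart in Timm10. Timm10b, the other small TIM gene read, also holds 2 such motifs in its 100 codons. Among the other 24 genes read, the coding sequence of the leading transcript held a single CX3C match in Timm44, Tomm34 and Tomm40 and none in the rest. Timm8a1 and Timm8b share 52.2% of aligned coding bases.

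Summed over all members, the import genes held 1580 reads in replicate 1 and 2539 in replicate 2, or 3672 and 4031 CPM (mean 3852 ± 254, SD, n = 2 libraries). This was 0.367% and 0.403% of nuclear-gene reads. The TOM genes took the most, with 967 CPM in replicate 1 and 1068 in replicate 2 over 8 genes, followed by the TIM23 complex with 807 and 929 over 5 genes. The 6 small TIM genes summed to 549 and 516 CPM, the 4 motor genes to 479 and 579, the 2 processing peptidase genes to 486 and 484 and the 2 genes of TIM22 to 232 and 264. Single members ranged from 10.1 to 366 CPM around a median of 116. A mean above 100 CPM was found for 16 of 30 members (53.3%) and for 1653 of 14514 genes read (11.4%), whose median was 11.8 CPM.

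**Figure D1:**
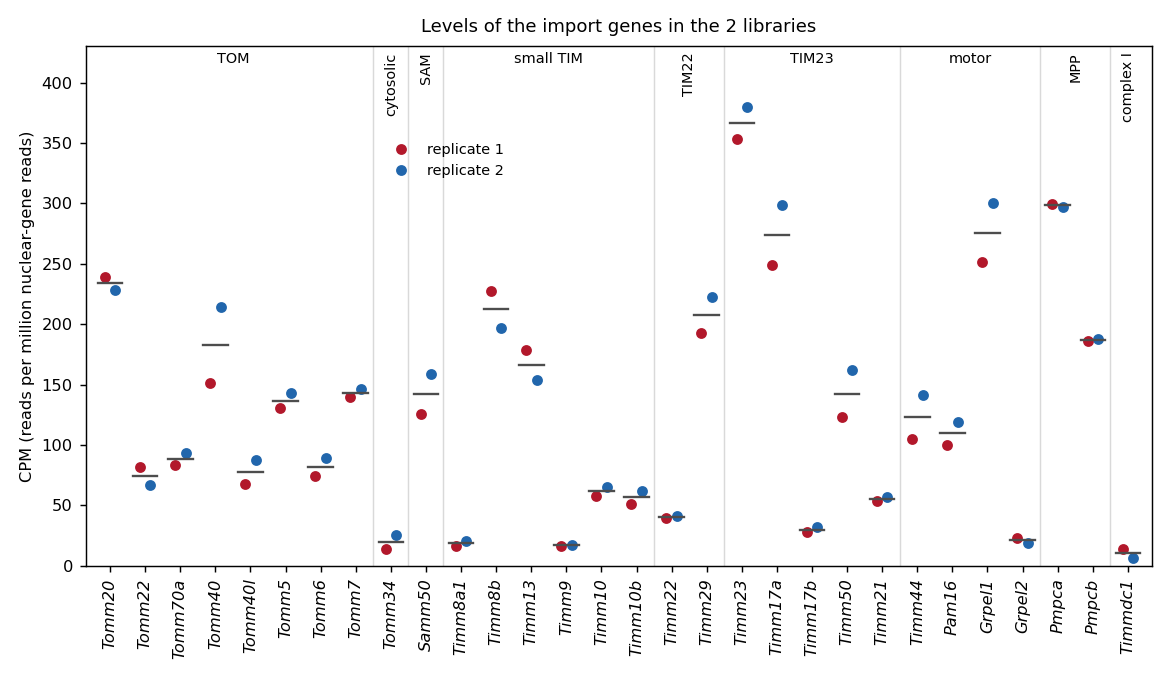
Level of each of the 30 import genes (CPM, vertical axis) in replicate 1 (red) and replicate 2 (blue), grouped by complex; bars are means of the 2 libraries. MPP is the processing peptidase. Timm23 stood highest at 353 and 379 CPM, and 7 members had means under 50 CPM.

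At the outer membrane, Tomm20, the receptor for cleavable presequences (ENSMUSG00000093904.2, chr8:126930667-126945844, minus strand, mm10), was the most read TOM gene, with 239 CPM in replicate 1 and 229 in replicate 2 (mean 234 ± 7.63; 103 and 144 reads). Tomm40, which forms the channel itself (ENSMUSG00000002984.17, chr7:19701313-19715438, minus strand), had 151 and 214 CPM (183 ± 44.7; 65 and 135 reads). These levels of Tomm40 lay further apart, relative to counting error, than those of any other member. The small subunits Tomm7 and Tomm5, which shape and stabilise the complex, had 139 and 146 CPM and 130 and 143 CPM. The third small subunit, Tomm6, had 74.4 and 88.9 CPM. Tomm70a, the receptor for carriers delivered by cytosolic chaperones, stood at 83.7 and 93.7 CPM, and Tomm22, the central receptor that holds the complex together, at 81.3 and 66.7 CPM. Of the 3 receptor genes, Tomm20 had the highest level in each library. Tomm40l, a second form of the channel protein, had 67.4 and 87.3 CPM. Samm50, the barrel at the core of the SAM complex (ENSMUSG00000022437.7, chr15:84192241-84217267, plus strand), had 126 and 159 CPM over all model classes. Tomm34 had only 6 and 16 reads (13.9 and 25.4 CPM).

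In the intermembrane space, the level of the small TIM genes spanned a wide range. Timm8b had 228 CPM in replicate 1 and 197 in replicate 2 (212 ± 21.9; 98 and 124 reads), and Timm13, the usual partner of the TIM8 proteins, had 179 and 154 CPM (166 ± 17.7). Timm10, which forms a ring-shaped chaperone with Timm9, stood at 58.1 and 65.1 CPM, and Timm10b, which docks small TIMs on TIM22, at 51.1 and 61.9 CPM. Timm9 was read only 7 and 11 times (16.3 and 17.5 CPM) and Timm8a1, whose human counterpart is mutated in a deafness and dystonia syndrome, 7 and 13 times (16.3 and 20.6 CPM). Timm8b and Timm13 had the highest levels of the small TIM genes in each library.

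At the inner membrane, Timm23, the core of the presequence translocase (ENSMUSG00000013701.13, chr14:32180162-32201898, minus strand), had the highest level of all members, 353 CPM in replicate 1 and 379 in replicate 2 (366 ± 18.5; 152 and 239 reads). Its partner Timm17a followed with 249 and 298 CPM (274 ± 35.2), and Timm50, the receptor that takes over precursors from TOM, had 123 and 162 CPM (143 ± 27.4). Timm21, which links the translocase to respiratory chain proteins, had 53.5 and 57.2 CPM and Timm17b, the second TIM17 form, 27.9 and 31.8 CPM. In the TIM22 complex the channel gene Timm22 had 39.5 and 41.3 CPM, whereas Timm29, a subunit described in human cells, had 193 and 222 CPM. Timmdc1 was the least read member, with 6 and 4 reads (13.9 and 6.35 CPM).

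On the matrix side, Pmpca, the substrate-binding alpha subunit of the processing peptidase (ENSMUSG00000026926.14, chr2:26389339-26397122, plus strand), had the second highest mean over all model classes, with 300 CPM in replicate 1 and 297 in replicate 2 (298 ± 2.09; 129 and 187 reads). The catalytic beta subunit gene Pmpcb had 186 and 187 CPM (187 ± 0.986). Of the motor genes, Grpel1, a nucleotide exchange factor of mitochondrial Hsp70, had 251 and 300 CPM (276 ± 34.7). In replicate 2 alone Pmpca lay just below Grpel1 and Timm17a, and with reads of known transcripts alone its mean of 241 CPM was below those of Grpel1 (271 CPM) and Timm17a (259 CPM), so the order of these genes is not settled. Timm44, which tethers the motor to the channel, had 105 and 141 CPM and Pam16, its J-like regulatory subunit, 99.9 and 119 CPM. Grpel2, the second exchange factor, had 23.2 and 19.1 CPM.

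Where import genes come in related forms, one form usually took the larger part of the reads. Timm17a held 89.9% of the reads of Timm17a and Timm17b in replicate 1 (exact Clopper-Pearson 95% interval 83.0 to 94.7) and 90.4% in replicate 2 (85.5 to 94.0). Grpel1 held 91.5% (85.0 to 95.9) and 94.0% (89.8 to 96.9) against Grpel2. Timm8a1 held 6.67% (2.72 to 13.3) and 9.49% (5.15 to 15.7) against Timm8b. Tomm40 held 69.1% (58.8 to 78.3) and 71.1% (64.0 to 77.4) against Tomm40l, a less one-sided split. Coding sequences of these pairs were identical at 68.2% of aligned bases for TIM17, 60.1% for GRPEL and 60.1% for TOM40. Tomm20l, a relative of Tomm20, and Timm8a2, a relative of Timm8a1, were not read in either library, and neither was Tomm6os, an RNA annotated antisense to Tomm6. A count of 0 allows up to 3 reads, or 6.97 CPM in replicate 1 and 4.76 CPM in replicate 2. In each pair with reads of both forms, the leading form was the same in both libraries. Reads were not counted by molecule, so these intervals and floors hold counting error alone.

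**Figure D2:**
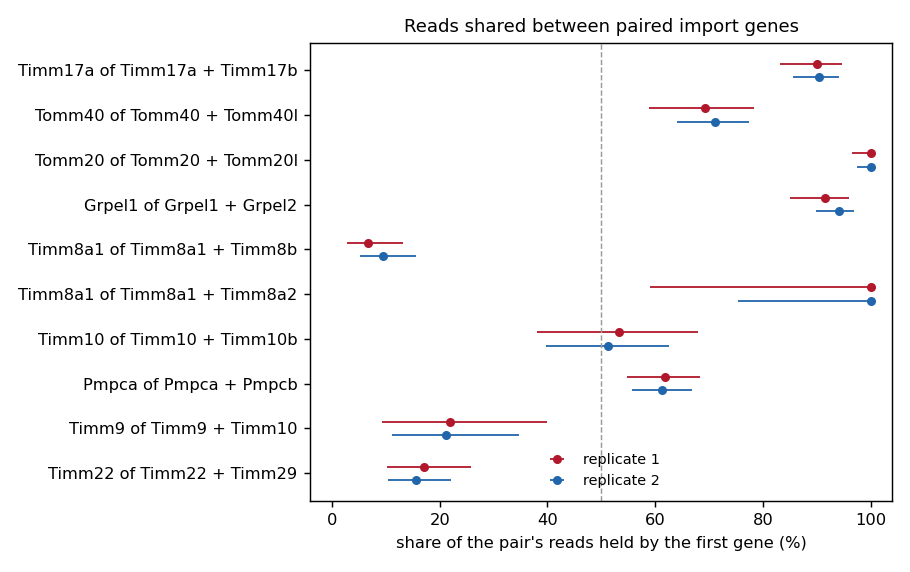
Share of a pair's reads held by the first named gene (percent, horizontal axis) in replicate 1 (red) and replicate 2 (blue), with exact 95% intervals; the dashed line marks an even split. The Timm17a share was 89.9% and 90.4%, and the intervals of Timm10 against Timm10b reach across the even split in both libraries.

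Partners that act in the same assembly were not read evenly either. Pmpca held 61.7% (54.8 to 68.3) of the reads of the peptidase subunits in replicate 1 and 61.3% (55.6 to 66.8) in replicate 2. Timm9 held 21.9% (9.28 to 39.97) and 21.2% (11.1 to 34.7) of the reads of Timm9 and Timm10, and Timm22 17% (10.2 to 25.8) and 15.7% (10.5 to 22.1) of those of Timm22 and Timm29. Timm10 and Timm10b were close to even, with 53.2% (38.1 to 67.9) and 51.3% (39.8 to 62.6) for Timm10. These are shares of reads, and protein levels were not measured.

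Reads of each gene in the 2 libraries were set against the library totals in an exact binomial test (two-sided; Benjamini-Hochberg), run on the 8086 genes that had 10 or more reads in sum. All 30 members entered the test and 0 of them passed at an adjusted p under 0.05, against 56 of all genes tested (0.693%), of which 26 (0.322%) also differed at least 2-fold. At an unadjusted p under 0.05, 1 of 30 members differed (3.33%), against 575 of all genes (7.11%). That member was Tomm40, at 0.705 times its replicate 2 level in replicate 1 (95% counting interval 0.516 to 0.954; unadjusted p = 0.0211 and adjusted p = 0.541 in the exact binomial test). The test weighs counting error between these libraries and nothing else.

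Most members lay a little lower in replicate 1. The log2 ratio of replicate 1 over replicate 2 was negative in 23 members and positive in 7, with a median of -0.15. Over all 8086 genes tested it was negative in 3960 and positive in 4126, with a median of 0.01. Among genes with at least 50 reads it was negative in 18 of 23 members and in 1784 of 3305 genes. The medians there were -0.16 and -0.03. Among all members the ratio ranged from -0.79 for Tomm34 (6 and 16 reads) to 1.08 for Timmdc1 (6 and 4 reads). These members had some of the fewest reads. Within 1.5-fold lay 28 of 30 members (93.3%) and 76.5% of all genes tested; among genes with at least 50 reads these shares were 23 of 23 and 91.6%. By complex, the summed ratio was 0.791 for SAM (Samm50 alone), 0.826 for the motor, 0.868 for TIM23, 0.882 for TIM22, 0.905 for TOM, 1.00 for the peptidase and 1.06 for the small TIMs, given as a description without a test. CPM is relative to the library total, to which erythroid markers gave 11259 CPM in replicate 1 and 2981 in replicate 2; their part in these ratios was not tested. Scaling by spike-in reads instead moved every log2 ratio by -0.27, so that the small TIM and peptidase ratios would lie below 1, and Tomm40 then passed the test at a log2 ratio of -0.77 (exact binomial test, adjusted p = 0.0120), one of 355 genes that passed at this scaling (4.39% of all genes tested). With the 2-fold minimum as well, 0 members were called there, against 0.866% of all genes.

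**Figure D3:**
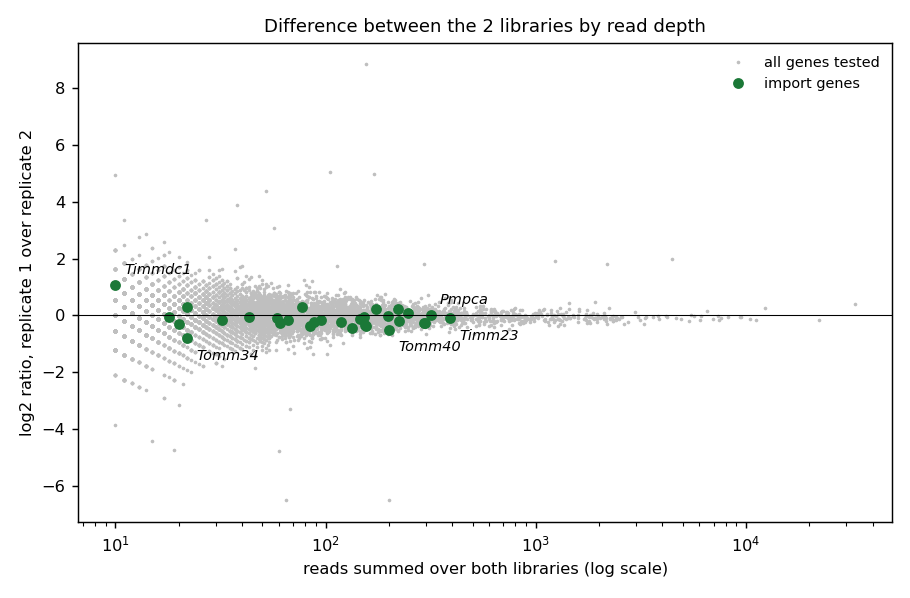
Log2 ratio of replicate 1 over replicate 2 (vertical axis) against reads summed over both libraries (horizontal axis, log scale) for the import genes (green) and all 8086 genes tested (grey). Members with at least 50 reads lie between -0.50 and 0.29, and Timmdc1 and Tomm34, with 10 and 22 reads, lie farthest from 0.

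Other genes of the import pathway came from a list of 22 that holds, among others, chaperones, metaxins and peptidases. Of these, 21 were read and 20 tested, and 0 passed the exact binomial test in either direction (median log2 ratio 0.01). At an unadjusted p under 0.05 there was 1, Hsp90ab1 (unadjusted p = 0.000846 and adjusted p = 0.101 in the exact binomial test). The highest were the cytosolic chaperones Hspa8 (1720 CPM in replicate 1 and 1719 in replicate 2) and Hsp90ab1 (1662 and 1403 CPM), which deliver precursors to Tomm70. Hspa9, the mitochondrial Hsp70 that drives the motor, had 1020 and 976 CPM (998 ± 31.1). The matrix chaperonin Hspd1 had 674 and 749 CPM, the protease Lonp1 435 and 487 CPM, and the Hsp70 co-chaperone Dnaja3 293 and 262 CPM.

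Reads of the import genes mostly followed annotated transcripts. Known transcripts took 90.8% of member reads in replicate 1 (exact 95% interval 89.2 to 92.1) and 91.3% in replicate 2 (90.1 to 92.4), against 75.7% and 75.6% of the reads of all nuclear genes. Incomplete splice matches (ISM), which hold part of an annotated transcript, took 4.56% and 5.40% of member reads and 10.8% and 11.05% of all. New combinations of known splice sites (NIC) took 0.570% and 0.473% of member reads and 5.42% and 4.96% of all, and models with an unannotated splice site (NNC) 1.84% and 1.18% against 3.71% and 3.53%. Genomic models, which overlap a gene without following its splicing, took 2.28% and 1.65% against 4.41% and 4.88%. No test was run on these shares.

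Counted by gene, the median known share was 92.9% over the 23 members with at least 50 reads and 84.7% over 3305 such genes in all. Within classes of transcript length the medians were 97.9% for 5 members and 94.8% for all genes under 1000 bases, 92.6% for 8 members and 89.5% for all from 1000 to under 2000 bases, and 90.8% for 10 members and 80.3% for all genes of 2000 bases or more. Pam16 and Tomm6 reached 99.2% and 98.9%, whereas Samm50 stood apart at 44.8%. Tomm70a (78.9%), Pmpca (80.7%) and Tomm40l (81.0%) followed it.

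**Figure D4:**
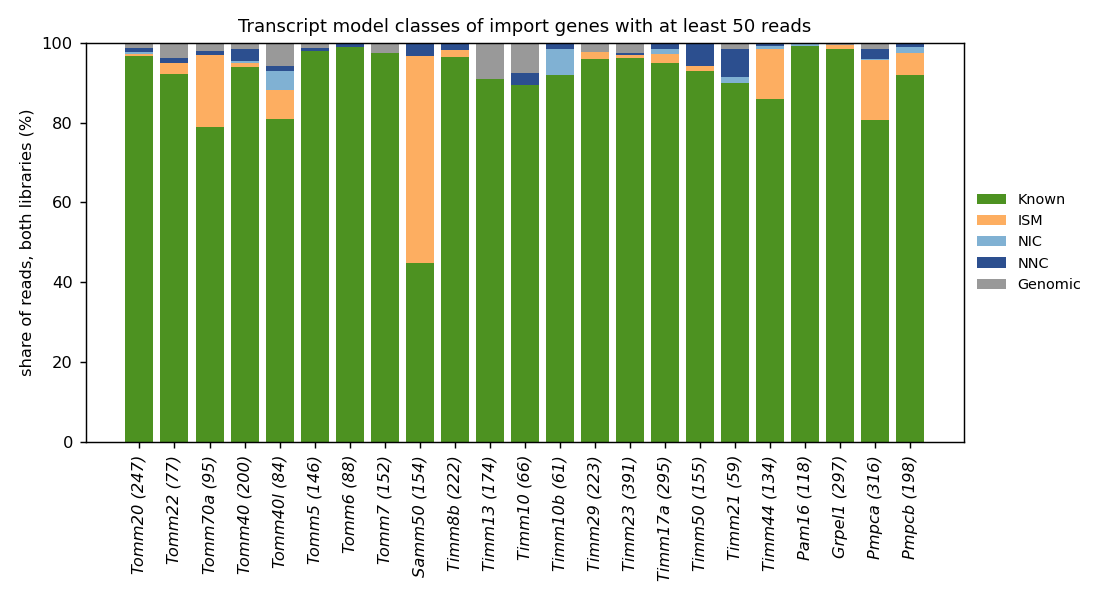
Share of reads in each class of transcript model (percent, vertical axis; both libraries together) for the 23 import genes with at least 50 reads, whose read numbers stand in brackets. Known transcripts hold 44.8% in Samm50 and up to 99.2% in Pam16.

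The Samm50 reads outside the known transcript all belonged to models that stop early at the 3′ end. Its ISM models also lack exons at the 5′ end, so the early end alone does not account for their class. In replicate 1 it had 28 reads of the known 15-exon transcript, 22 ISM and 4 NNC reads, and in replicate 2 it had 41, 58 and 1. All 26 reads outside the known transcript in replicate 1 and all 59 in replicate 2 belonged to models whose 3′ end lay 2959 or 2966 bases upstream of the annotated end. That place is in the last exon, 137 and 130 bases after the stop codon, past the whole coding sequence. Most of these reads, 19 in replicate 1 and 46 in replicate 2, lay in a single-exon model of 183 or 176 bases inside the last exon. With reads of known transcripts alone, the level of Samm50 was 65.1 CPM, against the mean of 142 CPM over all classes.

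Other members had models with an early end too, some shortly after the stop codon, some further on and some outside the last exon. Here an early end lies over 1000 bases before the annotated end of the gene's leading known transcript. Some of these ends match the annotated end of another transcript of the gene. Models with early ends held 64 of 146 member reads outside known transcripts in replicate 1 (43.8%) and 123 of 221 in replicate 2 (55.7%). Samm50 gave 40.6% and 48.0% of these reads. The share of reads in such models over all nuclear genes was not computed. In Pmpca such models ended 136 bases after the stop codon in replicate 1 (7 reads) and 197 bases after it in replicate 2 (20 reads). Tomm70a had 10 reads ending 524 bases after it and 3 reads ending 1792 bases after it in replicate 2. Tomm40l had 8 reads in replicate 1 and 4 in replicate 2 ending 328 bases after it. Of these reads in replicate 2, 3 belong to a genomic model recorded as 1 base long. Another 4 reads in replicate 2 ended 1719 bases after the stop codon, at the annotated end of Tomm40l-202. In Timm22, models with 5 reads in replicate 1 and 2 in replicate 2 ended before the last exon, in an intron. Timm17a had 5 and 7 reads ending 102 bases after the stop codon, at the annotated end of the short transcript Timm17a-204. Of the 5 in replicate 1, 1 read belongs to a genomic model recorded as 1 base long. Another 3 reads in replicate 1 ended 680 bases after the stop codon. Timm17b had 2 reads in replicate 1 ending 394 bases after the stop codon, at the annotated end of Timm17b-203. A model has a single end in the files, and the ends of single reads of known transcripts were not analysed here. In Samm50 the annotated gene Gm49513 overlaps on the same strand and had 0 reads.

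Letters near these ends were searched after their positions had been seen. The polyadenylation signals AATAAA and ATTAAA were looked for on the transcript strand in the 40 bases before an end. At least 1 of them stands before 76.7% of the annotated ends of 10333 leading protein-coding transcripts, and in 4.06% of 349278 other windows of 40 bases after the stop codons of the same transcripts. The same AATAAA stood 17 and 10 bases before the Samm50 ends of replicate 1 and of replicate 2. In Grpel1, AATAAA stood 14 bases before an end with 3 reads. None was found before the ends of Pmpca, Timm17a, Timm17b or Tomm40l, or before the Tomm70a end with 10 reads. The Tomm70a end with 3 reads had AATAAA 8 bases before it. A Tomm20 end with 2 reads in replicate 2 had ATTAAA 30 bases before it. The 20 bases after the end held 1 and 2 A in Samm50. They held 20 A after the Timm17a end with 3 reads, where the median of such windows is 5 and 1.42% of windows hold 12 or more. Priming within A-rich stretches was not tested.

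**Figure D5:**
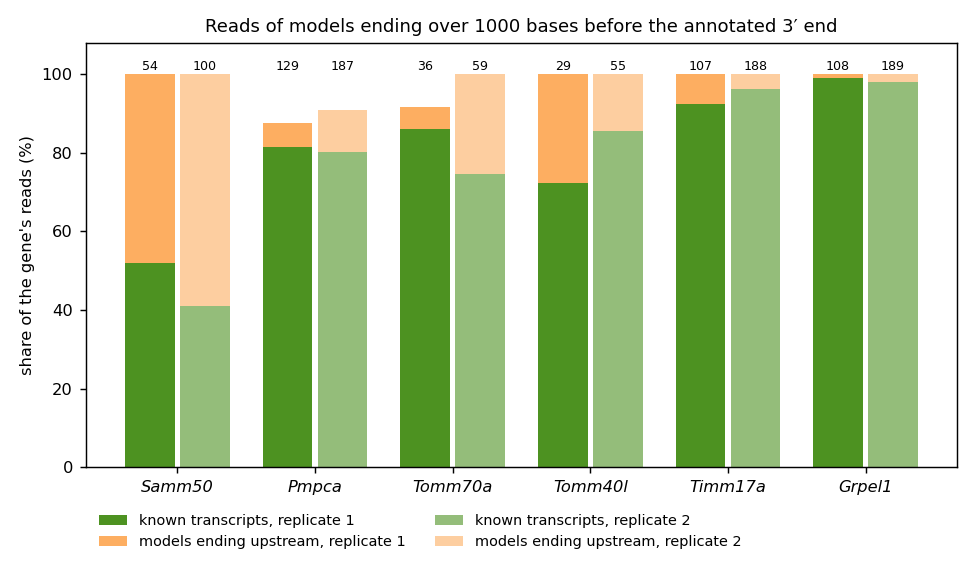
Share of each gene's reads (percent, vertical axis) in known transcripts (green) and in models whose 3′ end lies over 1000 bases before the annotated end (orange), with replicate 1 on the left in full colour and replicate 2 on the right in light colour; numbers above the bars are the gene's reads. The annotated end is that of the gene's leading known transcript. In Samm50 the upstream models hold 26 of 54 and 59 of 100 reads.

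Within known transcripts, a single one led in most members. The 30 members have 138 annotated transcripts, of which 55 were read and 30 had at least 10 summed reads. Among the 28 members with at least 20 reads of known transcripts, 12 had only 1 transcript (42.9%, against 49.0% of 4586 genes), and in 25 the leading transcript held over 90% (89.3%, against 76.1%). Protein-coding transcripts took 99.6% of known reads in replicate 1 and 99.7% in replicate 2, against 95.7% in each for all genes. The leading transcripts were those named 201 for 24 members; the exceptions were Tomm40-202, Tomm5-204, Tomm6-202, Tomm34-202, Timm9-207 and Timm10b-203. Timm10b was the most divided, with 13 and 25 reads of Timm10b-203 out of 21 and 35.

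Tomm40 was the only member with 2 known transcripts of at least 10 reads. Tomm40-201 had 8 of 63 reads in replicate 1 (12.7%) and 5 of 125 in replicate 2 (4.00%), and Tomm40-202 had 55 and 120. They carry the same coding sequence of 1086 bases and differ before it: Tomm40-202 splices out 98 bases (chr7:19715260-19715357, 5′ UTR) that Tomm40-201 keeps. The change of 8.70 percentage points gave an unadjusted p of 0.0347 and an adjusted p of 0.868 in Fisher's exact test over 550 genes with at least 2 such transcripts, of which 1 was called (0.182%). With a minimum of 5 reads, 4 members entered and 0 were called, against 1 of 733 genes (0.136%).

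Minor transcripts, most of them with another coding sequence, were seen at a few reads. Timm13-204 had 1 read in replicate 1 and 4 in replicate 2, against 65 and 87 of Timm13-201. Pmpca-202, with 441 codons in place of 524, had 3 and 2 reads against 102 and 148. Timm22-203, with 115 codons in place of 194, had 1 and 4 reads against 11 and 19. Tomm5-202 had 2 and 2 reads against 54 and 84, and Tomm6-201, with an unchanged coding sequence, 1 and 6 against 30 and 50. Retained-intron transcripts of Timm17b (0 and 3 reads) and Timm21 (2 and 0) were the most read transcripts that are not protein-coding. No test at the set minimum of 10 reads covered them.

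Spliced models outside the annotation were rare and mostly single reads. There were 21 NIC models in the 2 libraries, each of 1 read, and 51 NNC models, of which 44 had 1 read and none more than 3. Intron chains found in both libraries numbered 2 for NIC and 5 for NNC. The sites behind 3 of the NNC chains and behind Timm13-204 are printed from the GENCODE M21 transcripts, with the bases that the alternative model leaves out in capitals; all lie in coding sequence.
Timm50: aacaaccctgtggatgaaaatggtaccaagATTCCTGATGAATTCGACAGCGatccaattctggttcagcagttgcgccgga
Pmpca: tgccagacctcaagAGacaccaccatgtat
Tomm20: cgaccattagtcagAGaattgtaagtgctc
Timm13: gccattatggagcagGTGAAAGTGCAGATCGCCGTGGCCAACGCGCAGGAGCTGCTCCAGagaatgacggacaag
In Timm50, a model with 2 reads in replicate 1 and 1 in replicate 2 skips a whole exon of 22 bases (chr7:28310079-28310100, minus strand). Its upstream exon is longer by another 22 bases (chr7:28310274-28310295), so the model gains as many exon bases as it loses. A model with 1 read in replicate 1 skips the same exon but joins at another unannotated site. Another model, with 1 read in replicate 2, skips both that exon and the next exon upstream, and also joins at another unannotated site. In Pmpca (1 and 2 reads, chr2:26391084-26391085) and in Tomm20 (1 and 2 reads, chr8:126935058-126935059) the acceptor moved by 2 bases past an AG, which is not a whole codon. In Timm13 the 45 bases left out (chr10:80900624-80900668) are whole codons at the end of the first exon, before the first CX3C motif, and 80 codons are left of 95.

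The other shared chains were a Timm8b model with 1 read in replicate 1 and 2 in replicate 2, whose first exon runs 318 bases further before an intron at chr9:50604358-50604932, and a Timm21 model with 1 and 3 reads and an unannotated intron at chr18:84947178-84947521 inside the last exon. The NIC chains in both libraries were in Timm10b and Tomm40l, with 1 read in each library. Of the member NNC models, 55.6% of 27 in replicate 1 and 50% of 24 in replicate 2 had all unannotated sites within 6 bases of an annotated one, against 29.1% of 9633 and 29.4% of 12605 models of all nuclear genes. The sources used here do not say how reads got their strand, which leaves levels uncertain where members overlap other genes. Such neighbours had few reads, the highest being Tada2b beside Grpel1 (16 reads in replicate 1 and 17 in replicate 2), Nit2 beside Tomm70a (12 and 20) and Inpp5e beside Pmpca (9 and 15), and those on the same strand, Gm45799 at Timm10b and Gm21981 at Tomm6, had at most 2 and 3 reads.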

How the data were processed

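RNA of mouse hearts was measured by long-read sequencing in 2 libraries of 1 group. The authors deposited a table of raw read counts for each library, a row for each transcript model with its exon number and length; annotation files deposited beside them carry the models, named after TALON, on mm10 and GENCODE M21, per the file headers. The aligner, read correction and program versions are not given in the sources used here. Spike-in RNAs had been added, per the labels.

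Counts of all model classes were summed per gene. CPM used the reads of annotated nuclear genes, 430251 in replicate 1 and 629896 in replicate 2, without spike-in or mitochondrial reads; all reads came to 454069 and 661958. Levels are means with SD (n = 2 libraries). Shares have exact Clopper-Pearson 95% intervals, and the floor for a count of 0 is 3 reads. Libraries were compared by an exact two-sided binomial test and isoform use by Fisher's exact test (2 transcripts) or a chi-square permutation test with 100000 tables, with Benjamini-Hochberg adjustment over all genes tested. Passing meant an adjusted p under 0.05; a call also needed 2-fold, or 10 percentage points for isoforms. Log2 ratios are replicate 1 over replicate 2 with 0.5 reads added. Both tests were checked on simulated counts that held counting error alone. The binomial check planted changes only in genes with at least 50 reads. The isoform check used more reads and a larger share change than Tomm40 had. Neither check gives the power for members with few reads. Members, gene lists and pairs were chosen with earlier results of these data known. Every member was named, with the 6 highest of the other import genes, known transcripts of at least 10 summed reads, and unannotated spliced models of at least 3 summed reads or found in both libraries; minor transcripts with fewer reads, and the 3′ end and motif searches, were added after values were seen. Coordinates, transcripts and sequences are from GENCODE M21 (mm10). Alternatives covered model classes, scaling, filters, added reads and single libraries. Python 3.11.15, numpy 2.4.6, scipy 1.17.1, pandas 2.3.3, matplotlib 3.10.9 and Biopython 1.88 were used.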

Additional observations from a re-analysis of the deposited data

How the results depend on the processing

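With reads of known transcripts alone, the summed member level was 3506 CPM (3852 with all classes) and 15 genes of the whole table were called (26 with all classes). The mean share of Pmpca against Pmpcb was then 58.3% (61.5% with all classes) and that of Tomm40 against Tomm40l 73.8% (70.1%). Timm22 held 13.9% against Timm29 (16.3%) and Timm17a 90.9% against Timm17b (90.2%). The leading gene of each pair stayed the same. Without genomic models it also stayed the same, but Timm10 then held 50.4% against Timm10b (52.2% with all classes), almost an even split. The shares there were 61.0% for Pmpca against Pmpcb, 22.7% for Timm9 against Timm10 (21.5% with all classes) and 13.6% for Timm22 against Timm29. Scaled by spike-in reads, 70 genes (0.866%) and 0 members were called. At an adjusted p under 0.05 without the 2-fold minimum, 355 genes (4.39%) and 1 member passed (Tomm40, log2 ratio -0.77, exact binomial test, adjusted p = 0.0120). The summed ratio of the members was 0.757 (0.911 with nuclear totals). At a minimum of 5 reads per transcript, 4 members entered the isoform test and 0 were called, against 1 of 733 genes (0.136%) in all. In either library alone, the summed level lay between 3672 and 4031 CPM and the known share between 90.8% and 91.3%. The log2 ratios of Tomm40, Tomm34 and Timmdc1 kept their sign under every alternative run, and the adjusted p of Tomm40 ranged from 0.0120 to 0.891 in the exact binomial test. No paired analysis was possible because the series holds a single group. Depth limits the rarest members: Timmdc1, Timm9 and Timm8a1 rest on 10 to 20 reads.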

Other observations

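Some members had models of a single exon that recurred at the same place. Timm13 had a genomic model of 413 bases in its last exon in both libraries (chr10:80899492-80899904), with 11 reads in replicate 1 and 5 in replicate 2, which were all its reads outside known transcripts. Timm22 had a genomic model of 411 bases with 5 reads in replicate 1 (chr11:76411199-76411609) and of 410 bases with 2 reads in replicate 2, which run from the last base of an exon of the leading transcript into the next intron. Timm44 had an ISM model of 525 bases at its annotated 3′ end with 5 and 3 reads (chr8:4259731-4260255). In Pmpca, ISM models of 6 exons began at the same base in both libraries (chr2, 26392906): 1 model with 9 reads in replicate 1, and 1 with 14 reads and another with 1 read in replicate 2. In replicate 2, a genomic model of Tomm40l with 3 reads is recorded as 1 base long, at the base where an ISM model of replicate 1 with 4 reads ends (chr1, 171219193).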
